A study of Mus musculus with 6 samples.

Results

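The genes described here are Cdkn1a and 9 other genes of growth arrest, p53 itself (Trp53) with its targets and CDK inhibitors tied to senescence, 10 of the 24421 genes in the deposited table. They were chosen by symbol from a fixed list, and all 10 symbols were found. Hepatic mRNA was sequenced from mice, C57BL/6 by the labels and C57BL/6J by the paper, on standard chow with free access to food. Their age was 21 weeks by the sample labels and slightly lower by the paper. There were 2 groups of 3 male mice. These were wild type (WT) mice and heterozygous Pai-1+/- mice, which the study bred by crossing Pai-1-/- with WT animals, with littermates named as controls. The deletion was carried by the germline and was therefore not confined to hepatocytes. The 6 columns of counts per animal carried animal numbers that match no sample label, so no column was given to a genotype, and the genotypes are not compared here. All levels are the authors' mean normalized count, an average over all libraries of both genotypes without an error, and a difference between the genotypes in any of these genes cannot be seen in it.

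p53 is a transcription factor that is kept scarce by the ubiquitin ligase Mdm2 and accumulates when DNA is damaged or cells are stressed. It then raises genes that halt the cell cycle, repair DNA or start cell death. Cdkn1a is its best-known arrest target and encodes an inhibitor of cyclin-dependent kinases. Mdm2 and Ccng1 are targets that act back on p53. In the adult liver most hepatocytes rest outside the cell cycle, and Cdkn1a there also responds to signals that do not pass through p53.

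The regulatory sequence before the starts of these genes is shown first, because p53 can bind before the starts of its targets. It also binds inside genes, as in introns of Mdm2 and Gadd45a, and such sites lie outside these windows. Windows of 250 bases before each annotated start were taken from RefSeq on GRCm38.p6, the assembly also named mm10. Of the 10 genes, 9 had a window, with 11 windows in all, since Cdkn1a and Cdkn2c each had 2 starts. The gene without one is Trp53inp1. Capitals mark matches to the p53 half-site consensus, to a full p53 site (2 adjoining half-sites with at most 1 mismatch), to the TATA box (TATAAA) and to the GC box (GGGCGG), each searched on both strands. The windows of Cdkn1a are chr17:29090729-29090978 before its upstream start and chr17:29093519-29093768 before its downstream start, both on the plus strand. Those of Ccng1 and Mdm2, the feedback genes, are chr11:40755287-40755536 and chr10:117710759-117711008, both on the minus strand. That of Gadd45g, the gene with the highest level per kilobase of the longest transcript, is chr13:51846425-51846674 on the plus strand.
Cdkn1a, upstream start: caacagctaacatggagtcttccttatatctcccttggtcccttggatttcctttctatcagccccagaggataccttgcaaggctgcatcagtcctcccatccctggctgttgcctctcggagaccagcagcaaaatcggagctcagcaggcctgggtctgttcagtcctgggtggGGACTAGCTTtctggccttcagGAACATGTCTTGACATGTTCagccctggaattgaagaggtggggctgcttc
Cdkn1a, downstream start: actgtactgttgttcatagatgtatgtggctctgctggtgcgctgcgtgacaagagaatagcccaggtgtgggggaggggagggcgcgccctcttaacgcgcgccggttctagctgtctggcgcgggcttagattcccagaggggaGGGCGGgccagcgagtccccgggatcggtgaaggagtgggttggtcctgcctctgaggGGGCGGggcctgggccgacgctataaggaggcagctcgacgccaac
Ccng1: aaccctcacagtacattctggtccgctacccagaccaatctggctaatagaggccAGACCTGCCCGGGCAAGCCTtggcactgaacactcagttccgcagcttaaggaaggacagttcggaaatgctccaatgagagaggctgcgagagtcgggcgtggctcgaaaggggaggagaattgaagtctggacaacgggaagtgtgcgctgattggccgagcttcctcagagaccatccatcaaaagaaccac
Mdm2: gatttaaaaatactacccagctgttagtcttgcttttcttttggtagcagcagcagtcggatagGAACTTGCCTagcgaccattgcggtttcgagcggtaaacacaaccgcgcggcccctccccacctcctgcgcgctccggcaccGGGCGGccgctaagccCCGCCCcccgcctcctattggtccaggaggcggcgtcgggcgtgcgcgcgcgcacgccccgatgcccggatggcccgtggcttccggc
Gadd45g: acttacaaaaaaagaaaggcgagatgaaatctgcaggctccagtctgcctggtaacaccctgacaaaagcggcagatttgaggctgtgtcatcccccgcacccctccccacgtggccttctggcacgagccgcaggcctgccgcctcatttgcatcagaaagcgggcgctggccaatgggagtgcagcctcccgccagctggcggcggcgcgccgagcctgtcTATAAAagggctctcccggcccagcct

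The upstream window of Cdkn1a held a full p53 site, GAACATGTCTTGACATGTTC, at chr17:29090928-29090947. It began 51 bases before the upstream start and 2841 bases before the downstream start, which lies 2790 bases farther along the gene. The first 10 bases of this site are also a half-site match by itself, and a separate half-site match lay in front of it in the same window. The downstream window of Cdkn1a held 2 GC boxes and no p53 match. The window of Ccng1 held the other full site among the members, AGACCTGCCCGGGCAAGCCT, at chr11:40755462-40755481, beginning 195 bases before the start, and its last 10 bases matched the half-site consensus. Full sites were rare in general, in 25 of 32851 windows of all genes (0.0761%). A half-site was found in windows of 5 genes, Trp53, Mdm2, Ccng1, Cdkn1a and Gadd45a, and in 7.13% of all windows. Most of these genes are in the list because p53 is known to act on them, so the matches describe the sequences and carry no test. The windows of Cdkn1b, Cdkn2c, Gadd45b and Gadd45g held no half-site match, which says only that these letters are not in this stretch.

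The exact TATA box letters were found before Gadd45b, Gadd45g and, on the other strand and far from its start, Trp53, against 12.4% of all windows. Other spellings were not searched, and the downstream window of Cdkn1a holds TATAAG near its end, which is not counted here. In Gadd45g the box began 27 bases before the start and in Gadd45b 46 bases before it. Gadd45a had none. GC boxes were found in windows of 6 genes and in 32.7% of all windows. CCAAT boxes (CCAAT) were found in windows of 7 genes and in 33.8% of all windows. The E-box (CACGTG), which the circadian clock factors bind, was found before Gadd45b and Gadd45g and in 6.02% of all windows. The CRE half-site (TGACG) was found in 0 of 11 member windows and in 17.8% of all windows. GC content ran from 42.8% in the downstream window of Cdkn2c to 77.2% in its upstream window, and 10 of 11 windows lay above the median of all windows, 52.4%. The upstream window of Cdkn1a had 2 CpG dinucleotides and its downstream window had 19, against a median of 6 over all windows.

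**Figure D1:**
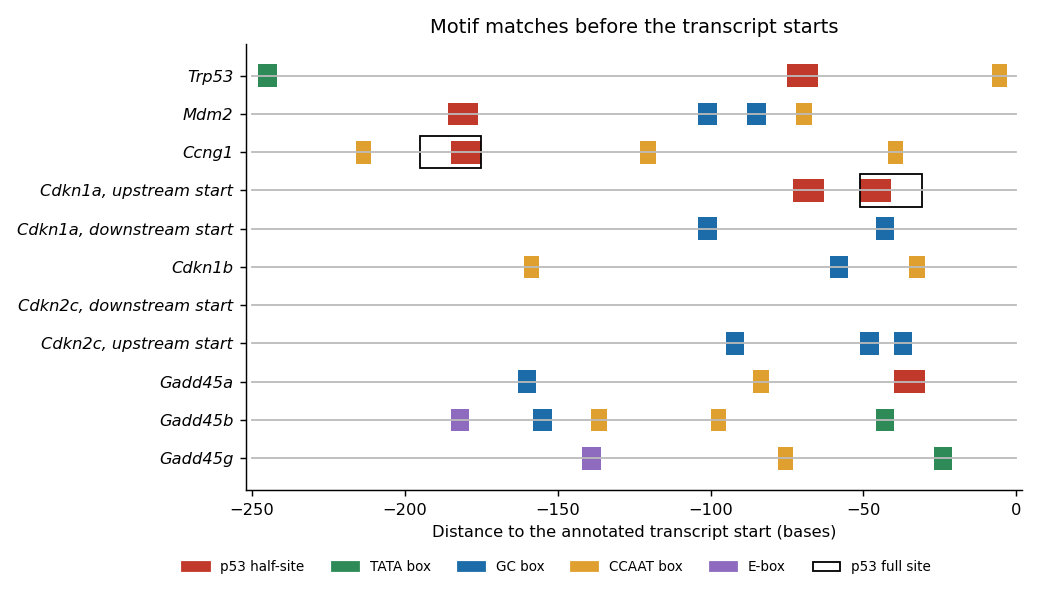
Matches to 5 short motifs in the 250 bases before each annotated start of 9 of the genes, with the distance to the start in bases on the horizontal axis and a black outline around the 2 full p53 sites. The full sites lie 51 bases before the upstream start of Cdkn1a and 195 bases before the start of Ccng1.

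All 10 genes were detected, each with a mean normalized count above 10, the level passed by 53.1% of the genes in the table. Their mean normalized counts ran from 186 for Cdkn2c to 4913 for Trp53inp1, with a median of 629. Longer transcripts collect more reads, so the order of the genes is given after division by the length of the longest annotated transcript in kilobases, and ranks and shares by count are named as such. On that scale the 10 genes ran from 75.2 for Cdkn2c to 1102 for Gadd45g, a 14.6-fold range, with a median of 268. The median of all genes with a mean normalized count above 10 and a known length was 129 per kilobase, and 9 of the 10 genes lay above it, with Cdkn2c below. The order from the highest, with this length, was Gadd45g, Trp53inp1, Gadd45a, Ccng1, Mdm2, Gadd45b, Cdkn1a, Trp53, Cdkn1b and Cdkn2c. No spread between mice stands behind these levels, so which neighbors in this order differ beyond their spread was not tested. The closest neighbors were Trp53 and Cdkn1b, at a ratio of 1.04 per kilobase, and Gadd45b and Cdkn1a, at a ratio of 1.06 per kilobase.

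**Figure D2:**
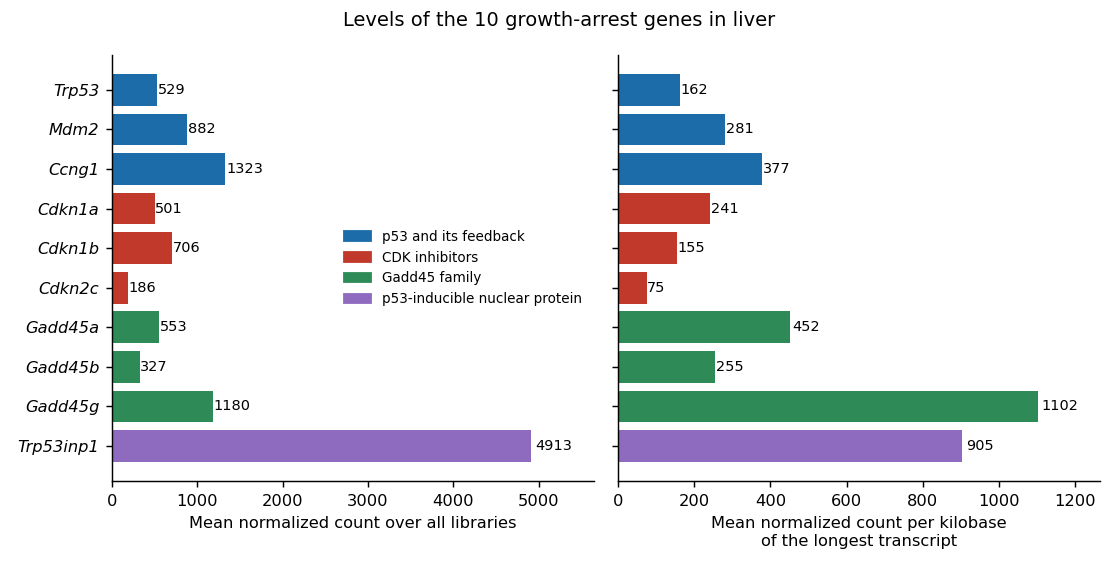
Mean normalized count over all libraries (left) and the same per kilobase of the longest transcript (right) for the 10 genes, colored by role, with 1 bar per gene and no error because the deposited mean has none. Trp53inp1 has the highest count, 4913, and Gadd45g the highest level per kilobase of the longest transcript, 1102, although the mean transcript length puts Trp53inp1 above it.

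Trp53 (chromosome 11, 69580359 to 69591873, plus strand) had a mean normalized count of 529. Its level per kilobase was 162, higher than that of 67.2% of the 16953 genes with a mean above 0 and a known length. Among those with a mean above 10, it was higher than that of 55.5%. The longest annotated transcript of Trp53, at 3.28 kb, does not code for protein, and the longest coding transcript has 1.87 kb, of which 1143 bases are coding. With that length the level was 284 per kilobase, against 281 for Mdm2, so the place of Trp53 in the order depends on the length used. Because p53 is set mainly by the stability of its protein, its mRNA level is no measure of its activity.

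Mdm2, the ubiquitin ligase that marks p53 for degradation (chromosome 10, 117688875 to 117710758, minus strand), had a mean normalized count of 882. Its level per kilobase was 281, higher than that of 76.5% of genes and 1.74 times the level of Trp53 on the same scale. The level of Mdm2 was 174 per kilobase with the union of all exons, 1.33 times Trp53. With the mean transcript length it was 524 per kilobase, 1.80 times Trp53. With the longest coding transcript it was not above Trp53, at 281 against 284 per kilobase. Ccng1 encodes cyclin G1, a p53 target that guides a phosphatase to Mdm2 (chromosome 11, 40748552 to 40755311, minus strand). Its mean normalized count was 1323 and its level per kilobase 377, higher than that of 81.0% of genes. Per kilobase it stood at 1.34 times Mdm2 and 2.33 times Trp53. Both feedback genes were thus above Trp53 per length of the longest transcript, and Ccng1 was above it with all lengths tried.

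Among the CDK inhibitors, Cdkn1a (chromosome 17, 29090976 to 29100727, plus strand) had a mean normalized count of 501. Its level per kilobase was 241, higher than that of 73.9% of genes, which placed it seventh of the 10. Among genes with a mean above 10 and a known length, it was higher than that of 64.6%. Cdkn1b encodes the related inhibitor p27, which holds resting cells out of the cycle (chromosome 6, 134920401 to 134925513, plus strand). Its mean normalized count was 706, its longest transcript is 4.55 kb against 2.08 kb for Cdkn1a, and its level per kilobase was 155. Per kilobase Cdkn1a stood at 1.55 times Cdkn1b. This order was turned with the union of all annotated exons as the length, which gave 141 per kilobase for Cdkn1a and 155 for Cdkn1b. Cdkn2c, an inhibitor of the INK4 family that acts on Cdk4 and Cdk6 (chromosome 4, 109660876 to 109667189, minus strand), was the lowest of the 10 with a mean normalized count of 186 and a level of 75.2 per kilobase. It lay above 54.6% of genes with a mean above 0 and a known length, but above only 38.5% of those with a mean above 10.

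The Gadd45 genes encode small stress-induced proteins that bind kinases of stress pathways, the cell-cycle kinase Cdk1 and the replication clamp. Gadd45a, the member most directly tied to p53 (chromosome 6, 67035096 to 67037457, minus strand), had a mean normalized count of 553 and a level of 452 per kilobase. Gadd45b, known for its response to NF-kappaB and TGF-beta (chromosome 10, 80930073 to 80932204, plus strand), had a mean normalized count of 327 and a level of 255 per kilobase. Gadd45g, known for its response to cytokines (chromosome 13, 51846678 to 51848468, plus strand), had a mean normalized count of 1180 and a level of 1102 per kilobase, higher than that of 92.0% of genes. It made up 60.9% of the summed level of the family per kilobase, and stood at 2.44 times Gadd45a and 4.32 times Gadd45b on that scale. The order Gadd45g, Gadd45a, Gadd45b was found with every length tried.

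Trp53inp1 encodes a nuclear protein that p53 induces and that is also active in autophagy (chromosome 4, 11156431 to 11174379, plus strand). Its mean normalized count of 4913 was higher than that of 95.2% of the 17678 genes with a mean above 0, and it made up 44.3% of the summed mean normalized counts of the 10 genes. Per kilobase its level was 905, higher than that of 90.6% of genes, and its share of the sum fell to 22.6%. Its transcript of 5.43 kb is the longest of the 10, and the 3′ untranslated part takes 81.8% of its longest coding transcript.

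**Figure D3:**
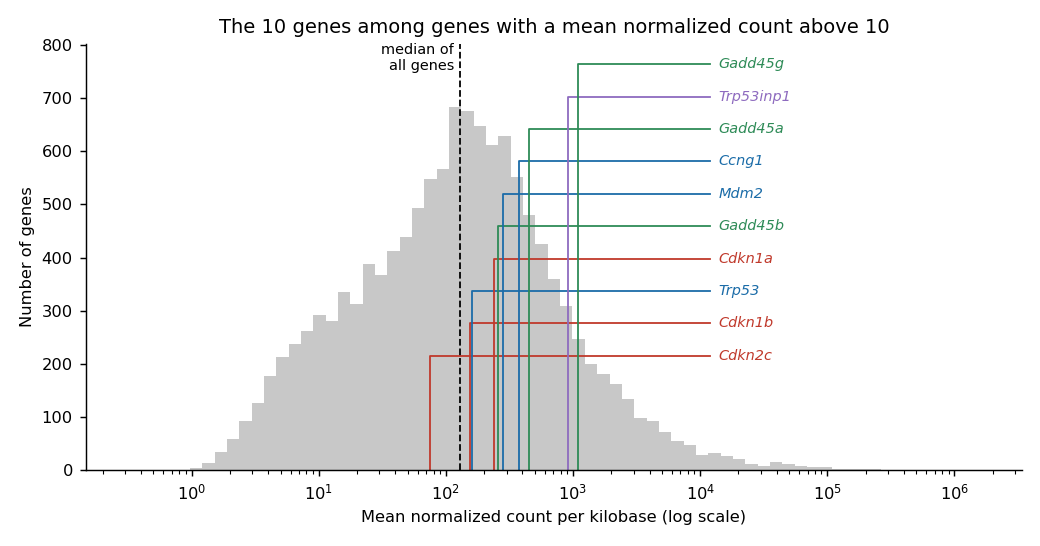
Number of genes (vertical axis) by mean normalized count per kilobase (horizontal log axis) for genes with a mean normalized count above 10. A colored line runs from each of the 10 genes at its level to its name. The dashed line marks 129, the median of all genes with a mean normalized count above 10. Of the 10 genes, 9 lie to the right of the dashed line and Cdkn2c lies to the left.

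The transcripts differ in how much of them codes. The coding part was 477 to 495 bases in the 3 Gadd45 genes, 477 bases in Cdkn1a, 504 in Cdkn2c, 591 in Cdkn1b, 717 in Trp53inp1, 882 in Ccng1, 1143 in Trp53 and 1320 in Mdm2. The 3′ untranslated part took 75.6% of the longest coding transcript of Cdkn1b, 66.0% of that of Ccng1 and 64.3% of that of Cdkn1a, whereas in Cdkn2c the 5′ untranslated part was the longest, with 1591 of 2471 bases. Reads from these genes could therefore come largely from bases outside the coding part. The annotation gives 9 transcripts for Mdm2, 7 for Gadd45a, 6 for Trp53 and 5 for Cdkn1a, and the deposited table gives 1 value for each gene, so transcripts of a gene cannot be told apart.

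**Figure D4:**
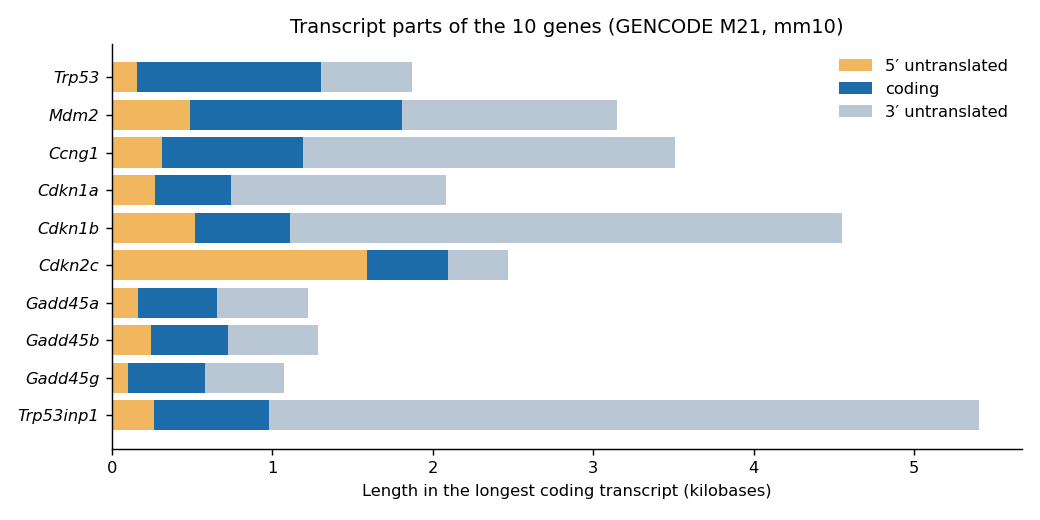
Length in kilobases of the 5′ untranslated, coding and 3′ untranslated parts of the longest coding transcript of each gene in GENCODE M21 on mm10. The 3′ untranslated part takes 81.8% of the transcript of Trp53inp1 and 15.2% of that of Cdkn2c.

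Whether reads could be shared with other genes was examined with all windows of 75 bases, the read length in the study, in the annotated transcripts. For 6 genes, Ccng1, Cdkn1b, Cdkn2c, Gadd45b, Gadd45g and Trp53inp1, 0 windows occurred in a transcript of another gene on either strand. For Gadd45a, 265 of 1908 windows (13.9%) lay in E230016M11Rik, a transcript on the other strand that shares 337 exonic bases with it and had a mean normalized count of 34.1. For Cdkn1a, 250 of 3547 windows (7.05%) occurred in transcripts of 93 other genes, among them AC167363.2 on the other strand, with which it shares 273 exonic bases. For Trp53, 47 of 4330 windows (1.09%) occurred in the pseudogene Trp53-ps, for which no value was used here. For Mdm2 the share was 0.535%. The strand setting of the counting is not given in the sources used here, and how reads that fit several genes were counted was not examined. The values of Gadd45a and Cdkn1a could therefore include reads of their partners or lack reads left out as shared.

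The other 5 CDK inhibitors measured were all lower per kilobase than Cdkn1a, Cdkn1b and Cdkn2c. Of 5, 2 had a mean normalized count above 10, Cdkn1c with 52.9 and Cdkn2d with 70.6. Per kilobase, Cdkn2d was the highest at 49.6, below the 75.2 of Cdkn2c. Cdkn3, which is in this list by its symbol, was the lowest at 1.73. Cdkn2a, the classic senescence locus that encodes p16INK4a and the Mdm2 antagonist p19ARF, had a mean normalized count of 3.77, and its neighbor Cdkn2b had 4.42. The level of Cdkn2a per kilobase was 4.21, against 241 for Cdkn1a.

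Other p53 targets spanned a wider range than the 10 genes, though a longer list can do so by its number of genes alone. All 29 had a mean normalized count above 10, and their median level was 87.6 per kilobase. Above 129, the median of all genes with a mean normalized count above 10, lay 12 of the 29. Per kilobase 9 of them stood above Cdkn1a. The highest was Rps27l, a ribosomal protein-like gene, at 4512 per kilobase, followed by Ei24, a membrane protein of the endoplasmic reticulum, at 4027. Trp53inp2, the relative of Trp53inp1, stood at 1753 per kilobase. Among the cell death genes, Bax, which permeabilizes mitochondria, stood at 372 per kilobase and the death receptor Fas at 348. Bbc3 at 63.8 and Pmaip1 at 12.0, both of which promote the action of Bax, were lower. The list also held Perp at 2055 per kilobase and another death receptor, Tnfrsf10b, which was the lowest of the 29 at 3.45. Ccng2, the relative of Ccng1, stood at 143 per kilobase.

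Of 11 p53 regulators, 9 had a mean normalized count above 10, with a median of 32.5 per kilobase. Usp7, a deubiquitinase of p53 and Mdm2, was the highest at 506 per kilobase. Mdm4, the partner of Mdm2, stood at 175 per kilobase, against 281 for Mdm2. The damage kinases were lower, with Atr at 59.9, Atm at 32.5, Chek2 at 14.8 and Chek1 at 3.86 per kilobase. The p53 relatives Trp63 and Trp73 had mean normalized counts of 3.74 and 0.172.

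The machinery that the CDK inhibitors restrain was measured too. All 15 G1 cyclins, CDKs and Rb-E2F genes had a mean normalized count above 10, with a median of 76.5 per kilobase. Of 15, 5 lay above 129, the median of all genes with a mean normalized count above 10. Cdk4 stood at 502 per kilobase, Ccnd3 at 320 and Ccnd1 at 137, whereas Cdk6 stood at 7.05 and Ccne1 at 24.0. Of the 10 proliferation genes, 7 had a mean normalized count above 10, and their median was 5.73 per kilobase. Pcna, the replication clamp that the Cdkn1a protein binds, was the exception at 335 per kilobase. Mki67, a marker of cycling cells, stood at 5.84 and Ccnb1, the mitotic cyclin, at 1.23.

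Senescence-associated genes were mixed. Of 15, 10 had a mean normalized count above 10, with a median of 12.3 per kilobase. Igfbp7, a secreted binding protein, stood at 1127 per kilobase and the chemokine Cxcl1 at 682. Il6 and Mmp3, secreted by senescent cells, had mean normalized counts of 0.689 and 3.13.

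**Figure D5:**
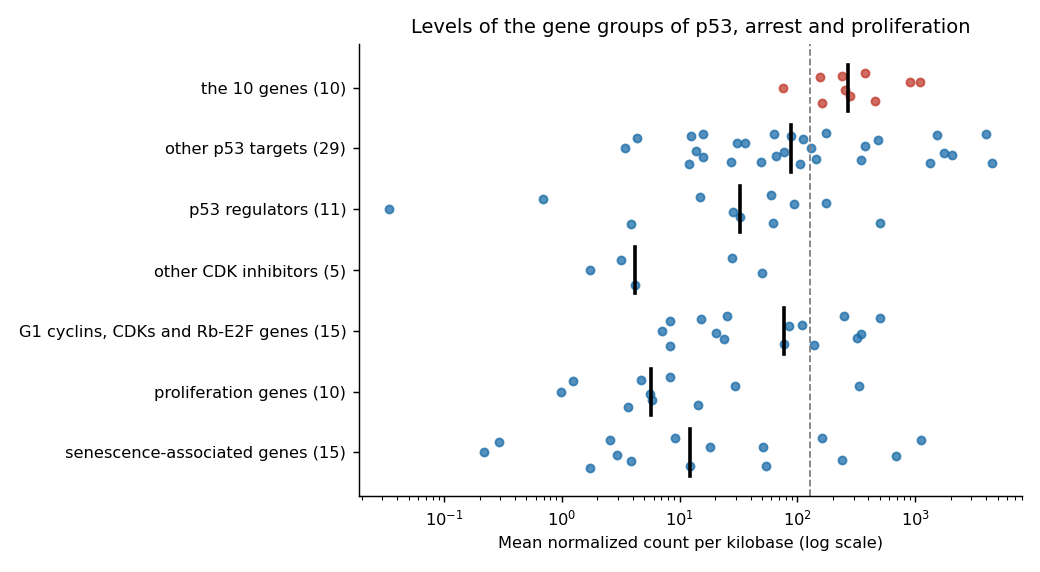
Mean normalized count per kilobase (horizontal log axis) of each gene in the 10 growth-arrest genes and 6 lists of related genes, with the number of genes in parentheses, a black bar at each median and a dashed line at the median of all genes with a mean normalized count above 10. The median of the 10 genes is 268 per kilobase, and the medians of the lists run from 4.21 for the other CDK inhibitors to 87.6 for the other p53 targets.

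The table as a whole was that of liver. The mean normalized counts summed to 30045982, of which the 10 highest genes took 16.8%, and the 10 growth-arrest genes took 0.0369%. All 5 hepatocyte markers lay between 24608 and 1059760 per kilobase, led by Alb. Markers of other cells were present as well. The 5 Kupffer cell markers ran from 79.6 to 1166 per kilobase (median 458) and the 5 endothelial cell markers from 70.7 to 635 (median 155). The 5 stellate cell markers ran from 23.7 to 887 (median 71.7), with Dcn the highest. The 5 cholangiocyte markers ran from 6.31 to 776 (median 45.2), with Spp1 the highest. The 4 T and B cell markers listed ran from 4.22 to 15.6 and the 3 neutrophil markers listed from 3.18 to 138. Of the red cell markers, Hba-a1 and Hbb-bs were listed at 0 and Alas2 stood at 1048.5 per kilobase. The reason for these 0 values was not tested, and they are not read as an absence of red cells. In such a bulk sample the cells that made each of the 10 transcripts cannot be told apart, nor can fewer cells of a type be told from less RNA per cell, and the part of the other cells in these levels was not tested.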

How the data were processed

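Single-end reads of liver mRNA came from 3 WT and 3 Pai-1+/- animals, and the authors aligned them to mm10 with STAR and compared the groups with DESeq2 through a BaseSpace application. The submitters' processing notes also name HOMER. Versions, the gene annotation and the strand setting are not given in the sources used here. The signal used is the mean normalized count, a value per gene that the authors deposited after scaling the counts of each library by a size factor and averaging them across the series. The deposited columns of the authors' own comparison (fold changes, standard errors, Wald statistics, p-values and adjusted p-values) were not used. The 6 columns of deposited counts per animal match no sample label and were not used, so the planned edgeR test could not be run, and depth, precision and spread between mice are not given here.

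Levels per kilobase used the longest transcript in GENCODE M21 (GRCm38), found by symbol for 96.4% of the 12971 genes with a mean normalized count above 10. Windows before RefSeq starts (GRCm38.p6) were searched for motifs, and windows of 75 bases were looked up in all GENCODE transcripts. Alternatives were other lengths and other sets of genes ranked. The named genes were the 10 genes, fixed lists of related genes (other CDK inhibitors, p53 regulators, other p53 targets, G1 and Rb-E2F genes, proliferation and senescence genes), fixed cell type markers and genes that share exonic bases. The targeted gene is not reported here. The genes and lists were chosen with earlier results of these data known, while the motifs, the p53 full site and the genes sharing 75-base windows were chosen after the values were seen. The functions were tested on simulated data. Python 3.11.15, NumPy 2.4.6, pandas 2.3.3 and Matplotlib 3.10.9 were used.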

Additional observations from a re-analysis of the deposited data

How the results depend on the processing

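The median level of the 10 genes was 268 per kilobase of the longest transcript, 190 with the union of all exons and 445 with the mean transcript length. It was 282 with the longest coding transcript, a length chosen after the data were seen, which changed the level of 2 genes, Trp53 and Trp53inp1, and the place of 4 genes in the order. The union of exons changed the place of 7 genes and moved 2 levels by more than 1.5 times, at most to 0.585 of the main value for Cdkn1a. The mean transcript length moved 6 levels by more than 1.5 times but the place of only 2, since it put Trp53inp1 (1501 per kilobase) above Gadd45g (1220). The median member lay above 69.8% of genes by mean normalized count, above 58.8% of genes with a mean above 10, and above 75.6% of genes per kilobase. The 10 genes took 0.0303% of the summed levels per kilobase and 0.0369% of the summed counts. None of these values has an error, so a change was not set against a spread. The edgeR and DESeq2 fits, with their filters, scalings and left-out libraries, were not run. No paired analysis was possible because the columns of counts carry animal numbers that match no replicate number or genotype.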
